A study of Mus musculus with 12 samples.

Results

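The genes described here are 7 potassium channel genes of the heart, Kcnj2, Kcnj12, Kcnj3, Kcnj5, Kcnj11, Kcnk3 and Kcnn2, chosen by name as inward rectifier and background potassium channels out of 48526 genes in each count file. Their transcripts were counted by RNA-seq in 12 libraries of sorted heart cells, 3 for each of 4 groups: Ncam-1 WT Purkinje cells (WT PC), Ncam-1 KO Purkinje cells (KO PC), Ncam-1 WT ventricular myocytes (WT VM) and Ncam-1 KO ventricular myocytes (KO VM). All mice were adult males that also carried the Cntn2-EGFP reporter. Cells were loaded with 50 nM TMRM, a mitochondrial dye that marks myocytes, and PCs were the dye-positive cells with green fluorescence whereas VMs were the dye-positive cells without it. The KO is a germline Ncam-1-/- line kept on C57BL/6 and crossed to the reporter line, a BAC transgene kept on CD1, so both cell types lacked Ncam-1, and the sort did not separate PCs by the chamber or side of the heart they came from. The labels do not state that the 3 libraries of a group came from separate animals, so p-values measure the spread between these libraries, which may be in part technical.

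When open, these channels carry potassium current that can affect how far a myocyte must be depolarized to fire and how its action potential ends. Inward rectifiers (Kir channels) pass current best near and below the resting potential because intracellular polyamines and magnesium plug the pore on depolarization. Kcnj2 and Kcnj12 encode Kir2.1 and Kir2.2, which form the current IK1 that holds the resting potential of working myocytes. Kcnj3 and Kcnj5 encode GIRK1 and GIRK4, which assemble into the channel of IKACh that opens when muscarinic or adenosine receptors release G protein beta-gamma subunits. Kcnj11 encodes Kir6.2, the pore of the ATP-sensitive channel, which needs a sulfonylurea receptor subunit, Kcnk3 encodes TASK-1, an acid-sensitive two-pore background channel, and Kcnn2 encodes SK2, a small-conductance channel opened by calcium through calmodulin.

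The genes lie at separate loci. On GRCm38, with GENCODE M21 gene models, Kcnj2 (ENSMUSG00000041695) is at chr11:111066164-111076821 on the plus strand, Kcnj12 (ENSMUSG00000042529) at chr11:61022564-61071131 on the plus strand, Kcnj3 (ENSMUSG00000026824) at chr2:55435970-55598145 on the plus strand, Kcnj5 (ENSMUSG00000032034) at chr9:32314707-32344350 on the minus strand, Kcnj11 (ENSMUSG00000096146) at chr7:46093953-46100764 on the minus strand and Kcnk3 (ENSMUSG00000049265) at chr5:30588170-30625271 on the plus strand. Kcnj5 is on the chromosome that also holds Ncam1. Exons of Kcnk3 overlap those of an antisense gene, Gm9899, which had 24 to 152 counts per library, and exons of Kcnj3 overlap those of Gm26794, which had 0 to 4. Since the strand setting used in counting is not given in the sources used here, the reads of Kcnk3 and Gm9899 cannot be told apart where the exons overlap.

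Promoter sequences of 4 of the 7 genes (Kcnj2, Kcnj12, Kcnj3 and Kcnj5) were taken from RefSeq for GRCm38.p6, and Kcnn2 was left out of the search. Those of Kcnj3 and Kcnj5 are shown because these subunits share a channel while their levels differed in pattern between the groups. Each run is the 250 bases before the transcription start, read 5′ to 3′ on the strand of the gene, with Kcnj3 at chr2:55435720-55435969 (plus) and Kcnj5 at chr9:32344345-32344594 (minus), and capitals mark a match to any of the 4 motifs searched.
Kcnj3: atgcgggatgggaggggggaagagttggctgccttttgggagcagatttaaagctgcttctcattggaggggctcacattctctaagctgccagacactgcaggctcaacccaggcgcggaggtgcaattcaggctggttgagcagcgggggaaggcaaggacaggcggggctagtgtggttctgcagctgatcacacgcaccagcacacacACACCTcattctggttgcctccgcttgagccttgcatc
Kcnj5: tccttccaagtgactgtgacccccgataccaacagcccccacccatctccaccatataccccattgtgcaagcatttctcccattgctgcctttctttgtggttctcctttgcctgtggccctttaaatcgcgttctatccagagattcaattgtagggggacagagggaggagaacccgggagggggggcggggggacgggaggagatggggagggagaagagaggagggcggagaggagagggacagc
All motifs were searched on both strands. The TATA box was searched as the letters TATAAA, the site of GATA factors as AGATAA, the site of T-box factors as AGGTGT and the core site of ETS factors as CGGAAG, and no matches overlapped. The single match in these windows was the T-box site in Kcnj3, on the opposite strand, at bases -38 to -33 from the start. That motif is found in 11.83% of 32817 promoter windows of this length, the TATA box in 12.37%, the GATA factor site in 9.99% and the ETS core site in 13.59%, and none of the 4 motifs was in the windows of Kcnj5, Kcnj2 or Kcnj12. The GC content was 58.4% for Kcnj3 and 58.0% for Kcnj5, against 65.6% for Kcnj2, 56.0% for Kcnj12 and a median of 52.4% over all windows, and the windows of Kcnj3 and Kcnj5 each held 7 CpG dinucleotides, against 14 for Kcnj2. The window of Kcnj12, at chr11:61065554-61065803 (plus), lies inside the gene model given above, so it precedes a start within that model.

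The gene Kcnn2 (ENSMUSG00000054477), at chr18:45268860-45686024 on the plus strand, has the most annotated transcripts of the 7, namely 10. Its exons together span 7468 bases whereas its longest single transcript has 3682, so its level per length depends on which of these is used. Exons of the antisense gene A330093E20Rik overlap those of Kcnn2 and had 0 to 6 counts per library.

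The libraries held 1532393 to 6761356 counts on genes outside the mitochondrial genome, and mitochondrial transcripts took 78.99% to 91.25% of all counts on genes. Library WT PC 2 stood apart, with 63.94% of read pairs not aligned against 18.76% to 24.66% in the other 11. It had counts for 11847 genes against 13571 to 18129. Many results that move with it are also given without it, or with the range over fits that each left out a library. Ncam1, the targeted gene, had 34 to 116 counts in each WT PC library, 0 to 9 in WT VM and 0 to 1 in each KO library. The 8 cardiomyocyte markers summed to 216180 to 274900 normalized counts over all libraries, and 10 of 12 PC markers were higher in WT PC than in WT VM and 7 of 11 tested in KO PC than in KO VM, all at unadjusted p under 0.05. Over all genes tested the shares were 6.36% and 9.7% in either direction. The PC markers were chosen with earlier results of these data known and include Cntn2, so they are not an independent check of the sort. Cntn2, the gene whose reporter defined the sort, was at 38.67, 49.24 and 452 normalized counts in KO PC 1, 2 and 3, against 237 to 533 in WT PC and 2.22 to 8.99 in VMs. In sorted bulk samples, fewer cells of a type and less RNA per cell cannot be told apart.

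All 7 genes were detected in all 12 libraries. Levels are given as normalized counts, that is counts scaled to a common effective library size by the TMM method, and between genes as normalized counts per kilobase of exon. Averaged over the 12 libraries, Kcnj3 and Kcnj5 stood at 116.8 ± 28.7 and 116.3 ± 27.7 per kilobase (SD, n = 12) and Kcnj2 at 98.1 ± 23.6. Kcnk3 followed at 52.9 ± 11.1 and Kcnj11 at 30.8 ± 5.99, and Kcnj12 at 17.1 ± 9.003 and Kcnn2 at 7.12 ± 2.27 were the lowest.

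**Figure D1:**
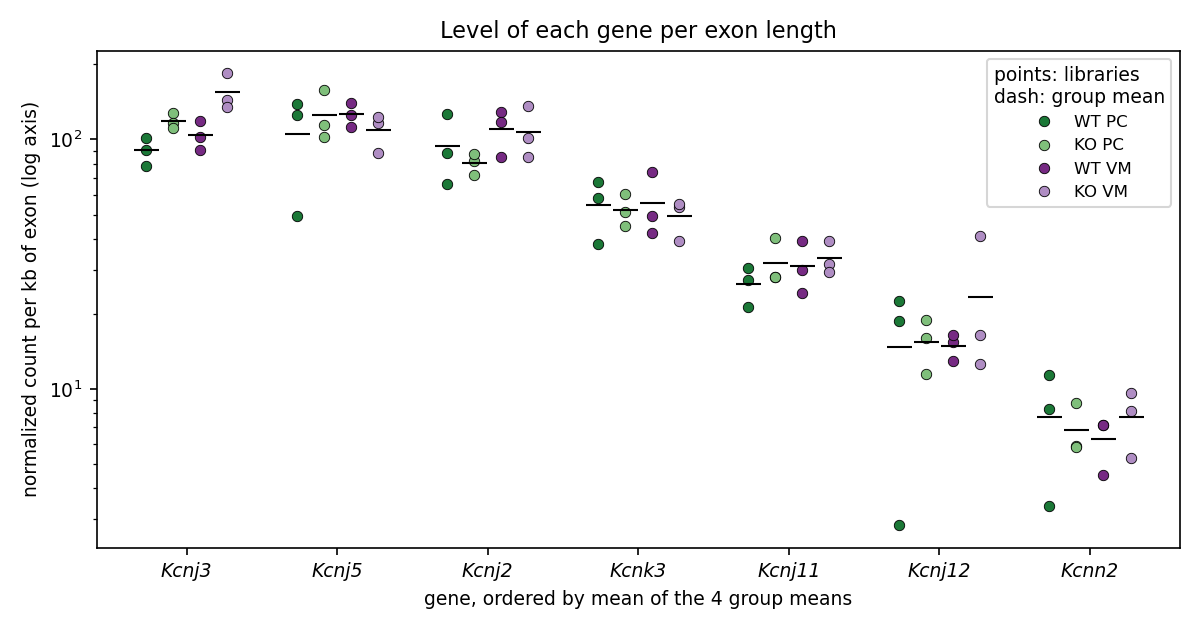
Normalized count per kilobase of exon (log axis) of each gene in each library, with dashes for group means. Kcnj3, Kcnj5 and Kcnj2 lie highest, near 100 per kilobase, and Kcnn2 lowest, near 7, in each group.

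The order of the genes by level was much alike in the 4 groups. The first 3 places went to Kcnj5, Kcnj2 and Kcnj3 in some order, followed by Kcnk3, Kcnj11, Kcnj12 and Kcnn2 in each group. Within WT PC the ranges of the leading 3 overlapped with their neighbours, as did those of Kcnj11, Kcnj12 and Kcnn2, so these places are not separated beyond the spread of the libraries. In WT VM the leading 3 overlapped whereas each lower neighbour was separated. In KO VM Kcnj3 came first, at 135 to 184 per kilobase, with no overlap with Kcnj5 at 88.5 to 123. In KO PC Kcnj3 at 111 to 128 overlapped with Kcnj5 at 102 to 158 and lay above Kcnj2 at 72.0 to 87.3. With the longest transcript in place of all exons Kcnn2 averaged 14.4 per kilobase and stayed below Kcnj12 at 19.1.

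**Figure D2:**
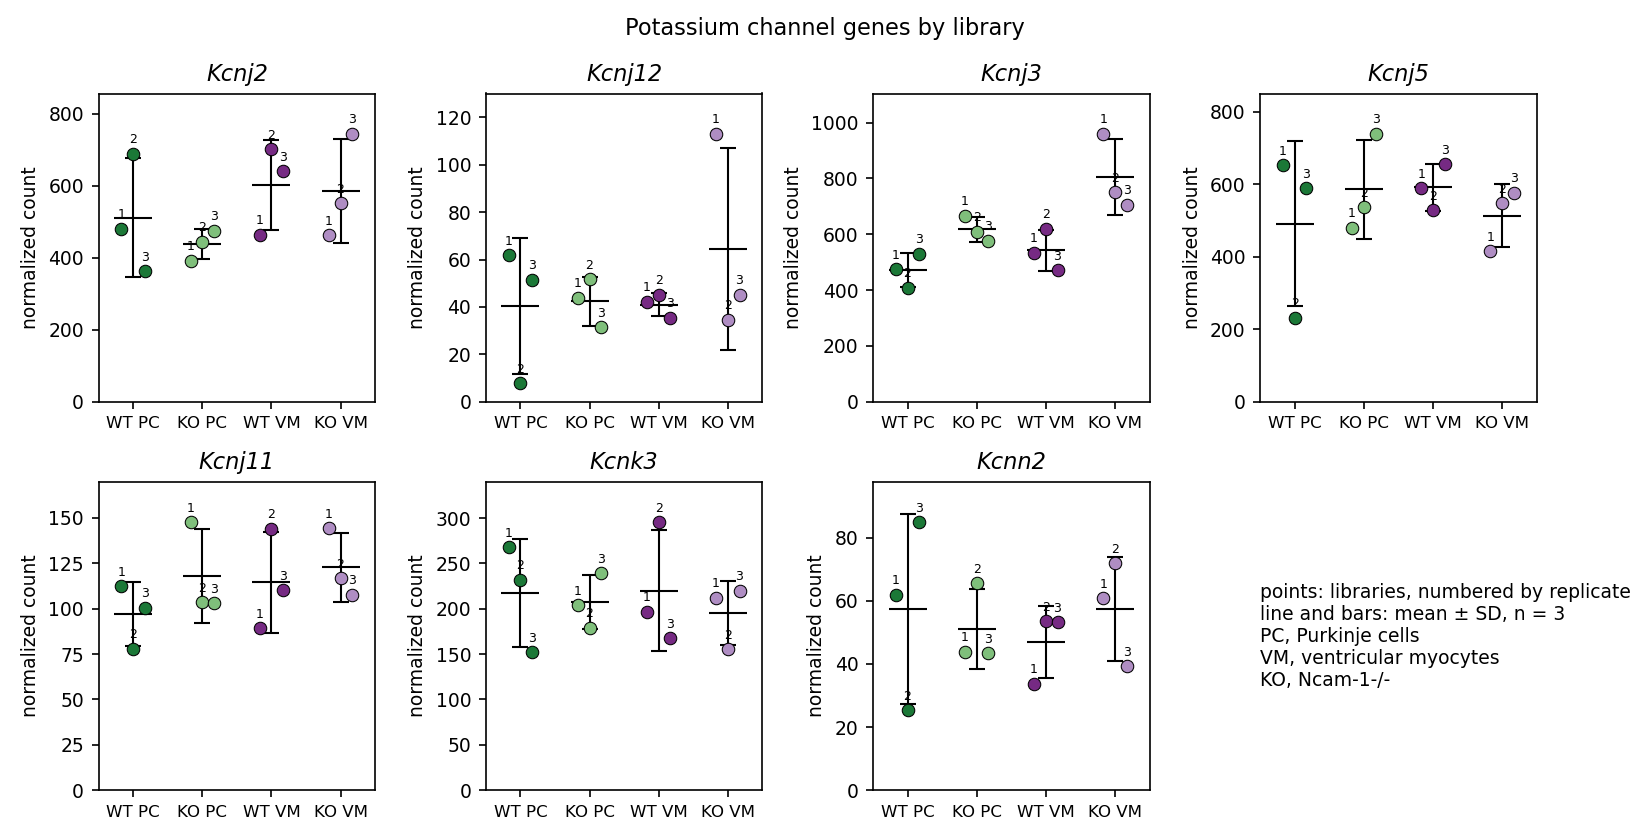
Normalized counts of the 7 genes in each library (points, numbered by replicate), with the mean ± SD of each group (n = 3). Kcnj3 is higher in both KO groups than in the WT group of the same cell type. WT PC 2 is the lowest library for Kcnj12, Kcnj5, Kcnj3, Kcnj11 and Kcnn2.

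The first question is whether Purkinje cells and ventricular myocytes of WT hearts differ in these channels. No gene of the 7 passed an unadjusted p of 0.05, against 6.36% of the 11822 genes tested in this comparison, and none passed after adjustment, against 0.11% (quasi-likelihood test of edgeR, p-values adjusted over all genes by Benjamini-Hochberg). None had groups that did not overlap, against 13.9% of the genes tested. Of the 7, 2 were higher in PCs by fold and 5 lower, with a median log2 fold change of -0.23, beside -0.0036 over all genes tested. limma voom, which gave less weight to poor libraries, put 1 of the 7, Kcnj2, at an unadjusted p of 0.0258. By that method 10.2% of all genes tested had an unadjusted p under 0.05.

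Among KO cells, 2 of the 7, Kcnj2 and Kcnj3, were lower in PCs than in VMs at an unadjusted p under 0.05, against 9.7% of 10779 genes tested, and 1, Kcnj3, had groups that did not overlap, against 15.6%. None passed after adjustment, against 0.872%. Of the 7, 2 were higher and 5 lower by fold, with a median log2 fold change of -0.17, beside 0.0092 over all genes. One fit of all 12 libraries, which shares a single estimate of the spread, put none of the 7 at an unadjusted p under 0.05, against 5.83% of 11323 genes.

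The third comparison asks what loss of Ncam-1 did in PCs. None of the 7 passed an unadjusted p of 0.05, against 3.22% of 11754 genes, and 1, Kcnj3, was higher in KO with no overlap, against 9.52%. No gene of the 11754 passed an adjusted p of 0.05 (0%) in this edgeR fit, where 378 passed unadjusted. DESeq2 called 7, limma voom 1, edgeR with one fit of all libraries 3, edgeR with the replicate number as a block 1, and edgeR with no filter on low counts 132 of 21610. The median log2 fold change of the 7 genes was 0.006, beside -0.0023 over all genes.

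In VMs, 1 of the 7, Kcnj3, was higher in KO than in WT at an unadjusted p under 0.05, against 5.12% of 10737 genes, and with no overlap, against 9.63%. None of the 7 passed after adjustment, against 0.0373%. The median log2 fold change of the 7 was 0.09, beside -0.02 over all genes. The interaction, which is the genotype difference in PCs minus that in VMs, put none of the 7 at an unadjusted p under 0.05, against 2.9% of 11323 genes, and none of the 11323 at an adjusted p under 0.05 (0%) by edgeR, DESeq2 or limma voom, with 328 passing unadjusted by edgeR. With no filter on low counts, edgeR called 19 of 23366 genes in the interaction.

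**Figure D3:**
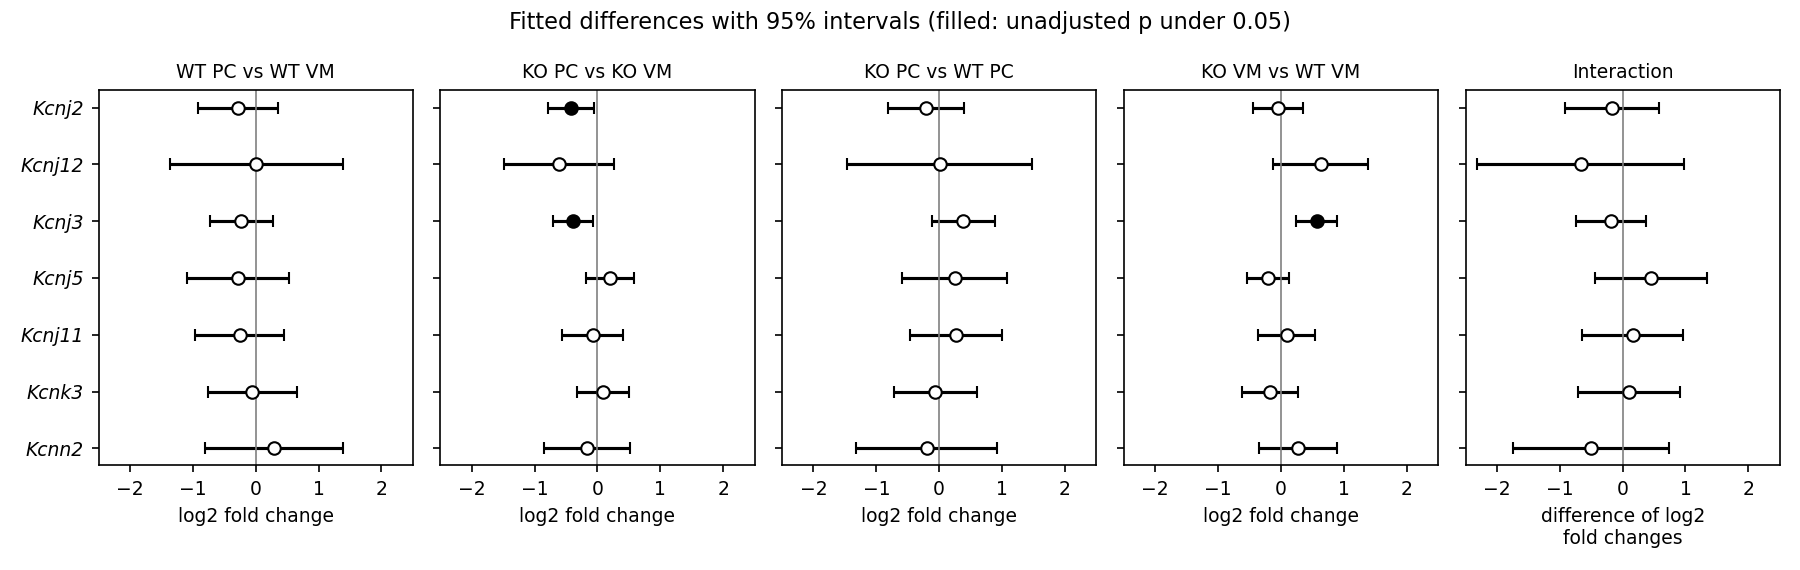
Fitted log2 fold changes with 95% intervals for the 7 genes in 4 comparisons (first group over second), and the interaction as the difference between the genotype fold changes in PCs and VMs. Filled points, with an unadjusted p under 0.05, are Kcnj2 and Kcnj3 in KO PC vs KO VM and Kcnj3 in KO VM vs WT VM, and the intervals of Kcnj12 and Kcnn2 are the widest.

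Kcnj3, the GIRK1 subunit, was the one gene of the 7 with groups that did not overlap in any comparison. Its normalized counts were 475, 408 and 530.5 in WT PC 1 to 3, and 666, 609 and 577 in KO PC 1 to 3. In VMs they were 535, 620.2 and 471 (WT) against 960.3, 751 and 706 (KO). The 3 KO VM libraries were the highest of the 12, and the KO PC libraries all lay above the WT PC libraries but overlapped with WT VM.

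In VMs the KO level of Kcnj3 was 1.48-fold the WT level (log2 fold change 0.57 ± 0.16, SE, 95% interval 0.24 to 0.90), with an unadjusted p of 0.00217 and an adjusted p of 0.664 by edgeR, at rank 35 of 10737 genes by p. The difference held at an unadjusted p under 0.05 in 7 of 7 alternative analyses and in 6 of 6 fits that left out a library, whereas the adjusted p over those alternative analyses ran from 0.101 to 1. The two-sided exact permutation test gave p = 0.1, the smallest that 3 against 3 libraries allow. In PCs the ratio was 1.31-fold (log2 0.38 ± 0.22, 95% interval -0.11 to 0.88, unadjusted p = 0.116 and adjusted p = 0.993 by edgeR, exact permutation p = 0.1). WT PC 2 was the lowest library for Kcnj3. With a library left out, the log2 value in PCs ran from 0.28 to 0.48 (unadjusted p from 0.0946 to 0.244 by edgeR).

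The interaction for Kcnj3 was -0.19 on the log2 scale (95% interval -0.75 to 0.37, unadjusted p = 0.487 by edgeR), so a difference between the cell types in the size of the genotype difference was not detected, nor are differences within that interval excluded. Marker levels of other cells also moved between the VM groups: 2 of 9 endothelial markers tested, 1 of 8 fibroblast and 2 of 6 mural were lower in KO VM at an unadjusted p under 0.05, with summed endothelial markers at 106 to 510 normalized counts in KO VM against 435 to 797 in WT VM. Summed mural markers were at 250 to 691 in KO VM against 480.0 to 982 in WT VM, and summed cardiomyocyte markers at 228140 to 274900 against 217250 to 233620. The lowest endothelial and mural sums were both those of KO VM 1, which was also the highest library for Kcnj3. In the other KO VM libraries the endothelial sums, 455 and 510, lay in the range of WT VM. Their mural sums were 395, below that range, and 691, within it. Of the atrial markers, 1 of 6 tested was lower in KO VM at an unadjusted p under 0.05 and none higher. Of the PC markers, 4 of 8 tested were higher in KO VM at an unadjusted p under 0.05 and none lower. Summed PC markers were at 202 to 276 in KO VM against 134 to 185 in WT VM, with no overlap. Pcp4, one of these markers, was at 0 in both VM groups. Kcnj3 itself had a mean of 617 in KO PC against 806 in KO VM, and 471 in WT PC against 542 in WT VM. The part of all these markers' cells in the difference of Kcnj3 was not tested.

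Within each genotype Kcnj3 was lower in PCs than in VMs by mean. In KO the ratio was 0.765-fold (log2 -0.39 ± 0.15, 95% interval -0.71 to -0.06, unadjusted p = 0.0217 and adjusted p = 0.380 by edgeR), with no overlap between groups and an exact permutation p = 0.1. This p passed 0.05 without KO PC 1, KO VM 2 or KO VM 3, but not without KO PC 2 (0.0567), KO PC 3 (0.0646) or KO VM 1 (0.0989). In WT the ratio was 0.854-fold with overlap (log2 -0.23 ± 0.22, 95% interval -0.73 to 0.27, unadjusted p = 0.330 by edgeR).

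Kcnj5, the GIRK4 subunit that pairs with Kcnj3, had another pattern. Its normalized counts were 653, 232 and 589 in WT PC, 479.9, 537 and 739 in KO PC, 589, 528 and 655 in WT VM, and 414, 547 and 577 in KO VM. The ranges of all 4 groups overlapped, and WT PC 2 was the lowest of the 12 libraries. The KO over WT log2 fold change was -0.21 in VMs (95% interval -0.54 to 0.12, unadjusted p = 0.198 by edgeR) and 0.24 in PCs (95% interval -0.59 to 1.08, unadjusted p = 0.529 by edgeR). Without WT PC 2 the value in PCs was -0.09.

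**Figure D4:**
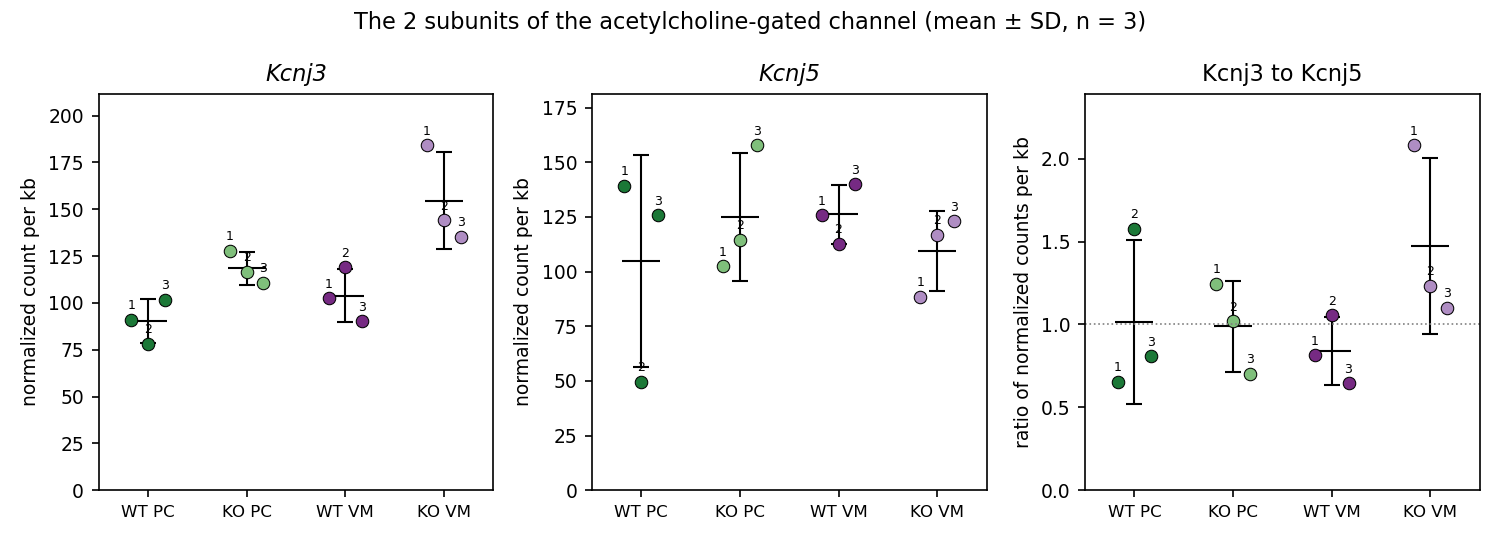
Normalized counts per kilobase of Kcnj3 and Kcnj5, and their ratio, in each library, with the mean ± SD of each group (n = 3) and a dotted line at a ratio of 1. The ratio exceeds 1 in all 3 KO VM libraries and overlaps between the PC groups.

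Because GIRK1 and GIRK4 assemble together, the ratio of Kcnj3 to Kcnj5 per kilobase was taken in each library, a measure chosen after the values were seen. In KO VM the ratio was 2.08, 1.23 and 1.10, and in WT VM 0.815, 1.06 and 0.646, with no overlap (difference 0.78 on the log2 scale, exact permutation p = 0.1, the smallest possible). In PCs it was 1.25, 1.02 and 0.702 in KO against 0.654, 1.58 and 0.809 in WT, which overlapped (difference 0.03, exact permutation p = 1). The highest PC ratio, 1.58, was that of WT PC 2. Whether the ratio difference in VMs differs from that in PCs was not tested.

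Kcnj2, the main Kir2 subunit of IK1 by transcript level, was at 481, 689 and 362 normalized counts in WT PC and 392, 444 and 475 in KO PC. In VMs it was at 463, 702 and 640.5 (WT) and 462, 551 and 744 (KO). The KO PC libraries lay in the lower part of the range and overlapped with KO VM by a single library, KO VM 1. In KO cells the PC level was 0.747-fold the VM level (log2 -0.42 ± 0.18, 95% interval -0.79 to -0.05, unadjusted p = 0.0296 and adjusted p = 0.431 by edgeR, exact permutation p = 0.2). The unadjusted p did not pass 0.05 without KO PC 1 (0.0922), KO PC 2 (0.0612) or KO VM 3 (0.273).

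In WT cells the PC level of Kcnj2 was 0.822-fold the VM level (log2 -0.28 ± 0.28, 95% interval -0.92 to 0.35, unadjusted p = 0.342 by edgeR). WT PC 2 was the highest WT PC library, and without it the log2 fold change was -0.53 with an unadjusted p of 0.0251 and an adjusted p of 0.373 by edgeR. The genotype differences of Kcnj2 were -0.21 on the log2 scale in PCs (95% interval -0.82 to 0.40) and -0.05 in VMs (95% interval -0.44 to 0.35), and neither was separated from 0.

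Kcnj12, the Kir2.2 subunit, was far lower than Kcnj2. Its normalized counts were 61.9, 7.80 and 51.4 in WT PC, 43.9, 51.8 and 31.4 in KO PC, 42.2, 45.2 and 35.5 in WT VM, and 113, 34.7 and 45.2 in KO VM. WT PC 2, which rests on 4 counts, was the lowest and KO VM 1 the highest, and all groups overlapped. In VMs the KO over WT log2 fold change was 0.63 (95% interval -0.12 to 1.39, unadjusted p = 0.0957 and adjusted p = 0.959 by edgeR), and -0.04 without KO VM 1. Without KO VM 2 or KO VM 3 the unadjusted p was 0.0170 or 0.0446.

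The other comparisons of Kcnj12 each moved with 1 library. In WT PC vs WT VM the log2 fold change was 0.01 (95% interval -1.36 to 1.39) and 0.46 without WT PC 2, and in KO PC vs WT PC 0.01 (95% interval -1.47 to 1.48) and -0.45 without WT PC 2. In KO PC vs KO VM it was -0.61 (95% interval -1.48 to 0.26), 0.05 without KO VM 1, and -0.91 with an unadjusted p of 0.0461 by edgeR without KO VM 2. Per kilobase, Kcnj2 exceeded Kcnj12 by 2.06 to 9.11 times in 11 libraries and by 44.6 times in WT PC 2.

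Kcnj11, the Kir6.2 pore, was at 112, 78.0 and 101 normalized counts in WT PC and 148, 104 and 103 in KO PC. It was at 89.1, 144 and 110.2 in WT VM and 144, 117 and 108 in KO VM. All groups overlapped, and the 4 pairwise log2 fold changes ran from -0.26 in WT PC vs WT VM (95% interval -0.96 to 0.45) to 0.26 in KO PC vs WT PC (95% interval -0.47 to 0.99). WT PC 2 was the lowest library. With a library left out, the first ran from -0.40 to -0.06 and the second from 0.10 to 0.36.

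The partner of Kir6.2 that dominated by transcript level was Abcc9, the sulfonylurea receptor SUR2, at 2760 to 4602 normalized counts over the 12 libraries, whereas Abcc8, which encodes SUR1, was at 7.80 to 102. Per kilobase, Abcc9 stood at 11.6 to 19.6 times Kcnj11, with group means of 15.1 in WT PC, 15.9 in KO PC, 15.4 in WT VM and 15.5 in KO VM. The ranges of this ratio overlapped in each of the 4 comparisons (exact permutation p from 0.8 to 1). The lowest value of Abcc8 was in WT PC 2, with 4 counts. Both partners were lower in WT PC than in WT VM with no overlap, against 13.9% of genes tested (Abcc9 log2 -0.25, unadjusted p = 0.237, Abcc8 log2 -0.89, unadjusted p = 0.165, by edgeR). Abcc8 was at 87.1 to 98.2 in KO PC against 7.80 to 67.6 in WT PC, with no overlap, against 9.52% (log2 1.06, unadjusted p = 0.107 by edgeR).

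Kcnk3, the TASK-1 channel, was at 268, 232 and 152 normalized counts in WT PC and 204, 179 and 239 in KO PC, and at 197, 296 and 168 in WT VM and 212, 155 and 220.0 in KO VM. The ranges overlapped in every comparison. The log2 fold changes lay between -0.17 in KO VM vs WT VM (95% interval -0.62 to 0.28) and 0.09 in KO PC vs KO VM (95% interval -0.33 to 0.51), and unadjusted p ran from 0.435 to 0.870 by edgeR. The reads shared with Gm9899 add an uncertainty that these files do not resolve.

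Kcnn2, the SK2 channel, was at 61.9, 25.4 and 84.9 normalized counts in WT PC and 43.9, 65.7 and 43.4 in KO PC, and at 33.8, 53.6 and 53.2 in WT VM and 60.8, 71.9 and 39.4 in KO VM. WT PC held both the lowest library, WT PC 2, and the highest, WT PC 3. The PC over VM log2 fold change was 0.29 in WT (95% interval -0.80 to 1.39) and -0.17 in KO (95% interval -0.86 to 0.52), with unadjusted p of 0.559 and 0.612 by edgeR. The KO over WT values were -0.20 in PCs (95% interval -1.33 to 0.93) and 0.27 in VMs (95% interval -0.35 to 0.89). With a library left out, the PC over VM value in WT ran from -0.08 to 0.62 (lowest unadjusted p = 0.0579 by edgeR). The KO over WT value in PCs ran from -0.53 to 0.19.

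Related channels were mostly not expressed at this depth. Of 10 other Kir genes, 7 had 3 or fewer counts in each of the 12 libraries, and of 13 other two-pore channel genes 10 did. Of 4 other calcium-activated channel genes, 1, Kcnn4, did. Kcnn1, which encodes SK1, was the one of these 4 that passed the filter, at 10.0 to 34.1 normalized counts, with no difference at an unadjusted p under 0.05 in any comparison.

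Kcnj8, which encodes Kir6.1, the pore of the ATP-sensitive channel known from vascular smooth muscle and pericytes, was the 1 other Kir gene that passed the filter on low counts. It was at 44.0, 105 and 32.4 normalized counts in WT PC and 86.1, 36.6 and 34.7 in KO PC, and at 9.38, 9.41 and 11.1 in WT VM and 2.83, 7.70 and 20.8 in KO VM. The PC libraries all lay above the VM libraries of their genotype. The PC over VM log2 fold change was 2.52 ± 0.56 in WT (unadjusted p = 0.00150 and adjusted p = 0.300 by edgeR) and 2.23 ± 0.57 in KO (unadjusted p = 0.00129 and adjusted p = 0.0928 by edgeR), and the groups did not overlap in either genotype. Without WT PC 2 the mean of WT PC was 38.2 in place of 60.6 and the log2 fold change in WT was 1.91 ± 0.41 (unadjusted p = 0.000432 and adjusted p = 0.0490 by edgeR). In KO the adjusted p passed 0.05 without KO PC 3 alone (log2 2.45, adjusted p = 0.0483 by edgeR), and the unadjusted p stayed under 0.05 in each of the 12 fits that left out a library.

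Markers of other cell types were also higher in PC libraries. Summed mural markers were at 1126 to 1398 normalized counts in WT PC against 480.0 to 982 in WT VM, and at 980.3 to 2440 in KO PC against 250 to 691 in KO VM. Of the mural markers, 3 of 9 tested were higher in WT PC and 4 of 7 in KO PC at an unadjusted p under 0.05. Of the endothelial markers it was 5 of 10 and 8 of 9, of the fibroblast markers 5 of 9 and 7 of 9, and of the leukocyte markers 4 of 5 and 4 of 4. Of the atrial markers it was 2 of 7 and 2 of 5. Summed atrial markers overlapped, at 1159 to 2027 in WT PC against 689 to 1281 in WT VM, and 947 to 1633 in KO PC against 727 to 1600 in KO VM. The marker Clu was the largest of the 8 in each library and weighed most on these sums. It was at 702 to 1224 in WT PC, 459 to 879 in WT VM, 638 to 905 in KO PC and 566 to 1236 in KO VM. Whether the other atrial markers overlap as a sum was not tested. The atrial marker Bmp10 had 141 counts in WT PC 1, 53 in WT VM 1 and at most 1 in any other library. Among neural markers, 6 of 8 were at 0 in all 3 libraries of each group. The part of these cells in the level of Kcnj8, and in the lower Kcnj2 and Kcnj3 of KO PC against KO VM, was not tested.

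Kcnk1, which encodes the two-pore channel TWIK-1, was at 4.79, 19.5 and 9.82 normalized counts in WT PC (11, 10 and 17 counts). It had at most 1 count in each WT VM library and at most 2 in each KO VM library. In KO PC 1, 2 and 3 it had 0, 0 and 5 counts. The WT PC libraries lay above all others. Kcnk1 passed the filter on low counts only through WT PC, the group where it was high, and without WT PC 2 it did not pass in WT PC vs WT VM, so its difference is given as a description with no test. The level is close to the limit of detection.

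Of 18 partners and regulators of these channels, 18 were tested in each comparison. In WT PC vs WT VM 3 were higher in PCs at an unadjusted p under 0.05 and none lower, against 6.36% of all genes tested in either direction, and none of the 18 passed an adjusted p of 0.05 in any comparison. Rgs6, a regulator that speeds the closing of IKACh, was at 63.2, 80.0 and 140.4 normalized counts in WT PC against 48.8, 35.8 and 42.2 in WT VM (log2 1.14 ± 0.41, unadjusted p = 0.0202 and adjusted p = 0.692 by edgeR). Adora1, the adenosine A1 receptor, was at 31.4, 66.3 and 33.5 in WT PC against 23.4, 16.0 and 14.8 in WT VM (log2 1.21 ± 0.50, unadjusted p = 0.0369 and adjusted p = 0.762 by edgeR). Gnai2, a G protein alpha subunit, was at 228, 316 and 210.3 against 179, 171 and 130.2 (log2 0.61 ± 0.26, unadjusted p = 0.0434 and adjusted p = 0.779 by edgeR).

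These 3 differences depended on single libraries. Without WT PC 2 the log2 fold change was 0.83 for Adora1 (unadjusted p = 0.0536 by edgeR), 0.44 for Gnai2 (0.0512) and 1.25 for Rgs6 (0.00232). Adora1 also missed an unadjusted p of 0.05 without WT VM 2 or WT VM 3, Gnai2 without WT VM 1, WT VM 2 or WT VM 3, and Rgs6 without WT PC 3 (log2 0.73), WT VM 2 or WT VM 3.

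In KO PCs 2 of the 18 were lower than in WT PCs at an unadjusted p under 0.05 and none higher, against 3.22% of all genes tested in either direction. Adora1 was at 17.58, 15.15 and 18.04 normalized counts in KO PC, below every WT PC library and in the range of the VMs (log2 -1.33 ± 0.55, unadjusted p = 0.0362 and adjusted p = 0.993 by edgeR). Cav3, which encodes caveolin-3, a scaffold of the muscle membrane, was at 102, 77.0 and 74.2 in KO PC against 155, 185 and 127 in WT PC (log2 -0.88 ± 0.31, unadjusted p = 0.0179 and adjusted p = 0.993 by edgeR). WT PC 2 was the highest library for both, and without it the log2 fold change was -0.94 for Adora1 (unadjusted p = 0.0746 by edgeR) and -0.77 for Cav3 (0.0129). Adora1 also missed an unadjusted p of 0.05 without any one of the KO PC libraries, and Cav3 without KO PC 2 or KO PC 3. PC markers moved as well, with 5 of 12 lower in KO PC than in WT PC and 1 higher at an unadjusted p under 0.05. They summed to 465 to 1860 normalized counts in KO PC against 1198 to 3594 in WT PC. The part of these shifts in Adora1 and Cav3 was not tested.

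Against KO VM, KO PC had lower Cav3 (log2 -0.54 ± 0.23, unadjusted p = 0.0350 by edgeR) and lower Chrm2, the muscarinic M2 receptor that drives IKACh. Chrm2 was at 1028, 1258 and 1109 normalized counts in KO PC against 1604, 1260 and 1407 in KO VM (log2 -0.33 ± 0.14, unadjusted p = 0.0332 and adjusted p = 0.451 by edgeR), a gap between the groups of only a few counts at its narrowest. These were 2 of the 18, against 9.7% of all genes tested. Chrm2 missed an unadjusted p of 0.05 without KO PC 1, KO PC 3, KO VM 1 or KO VM 3, and Cav3 without KO PC 2, KO PC 3, KO VM 1 or KO VM 3. In WT, Chrm2 overlapped, at 1242, 1346 and 1452 in PC and 1022, 1148 and 1512 in VM. None of the 18 passed an unadjusted p of 0.05 in KO VM vs WT VM, and 1, Gnai2, did so in the interaction (log2 -0.85 ± 0.37, unadjusted p = 0.0362 and adjusted p = 0.999 by edgeR), against 5.12% and 2.9% of all genes tested. Without WT PC 2 the interaction of Gnai2 was -0.66 with an unadjusted p of 0.0556 by edgeR, and 6 of the 12 fits that left out a library missed 0.05.

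**Figure D5:**
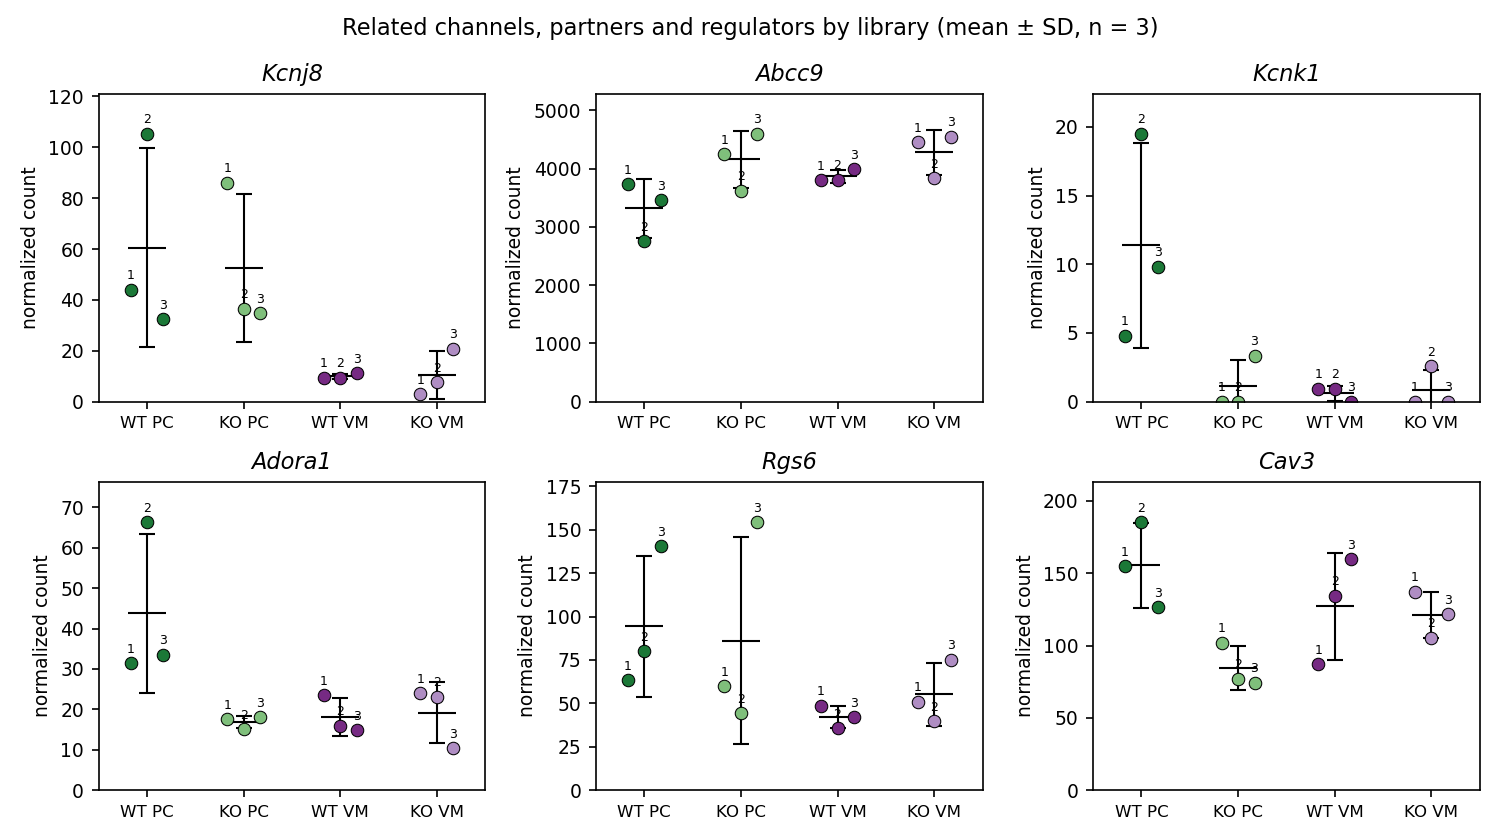
Normalized counts of 6 related genes in each library (points, numbered by replicate), with the mean ± SD of each group (n = 3). Kcnj8 is higher in both PC groups than in VMs, Kcnk1 is above 4 normalized counts only in WT PC, and Adora1 and Cav3 are lower in KO PC than in WT PC.

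The profiles of the 7 genes over the 12 libraries were set against those of 8099 other genes with a mean normalized count above 20, by Pearson's r on the log2 scale, as a description without a test, since the libraries share groups and WT PC 2 weighs on low values. The 3 closest to Kcnj3 were Rbfox2 (r = 0.914), a splicing factor, Vapb (r = 0.891) and Thra (r = 0.884), a thyroid hormone receptor. Kcnj5 was closest to Exoc4 (r = 0.959), Mapk6 (0.959) and Pspc1 (0.953), Kcnj12 to Plekhm1 (0.965), Rcc1l (0.962) and Add3 (0.944), and Kcnj2 to Tfrc (0.943), the transferrin receptor, Rras2 (0.855) and Mrps14 (0.837). Kcnj11 was closest to Drap1 (0.874), Snrnp200 (0.868) and Scn4a (0.854), Kcnk3 to Dffa (0.829), Elavl1 (0.821) and Coro6 (0.807), and Kcnn2 to Npc1 (0.864), Crebbp (0.843) and Ppargc1b (0.841).

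Among the 7 genes themselves, Kcnj3 and Kcnj5 had r = 0.10 over 12 libraries and r = -0.78 without WT PC 2. Kcnj12 and Kcnj5 went from 0.52 to -0.66 and Kcnj11 and Kcnj5 from 0.21 to -0.68 when WT PC 2 was left out, whereas Kcnj3 and Kcnj11 stayed at 0.69 and 0.56. These values describe 12 libraries that share 4 groups, and no relation between the genes is drawn from them.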

How the data were processed

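RNA of PCs and VMs sorted from dissociated hearts was amplified with a low-input kit and sequenced as 50 bp read pairs. Per the labels, the authors aligned reads to mm10 with STAR 2.5.0c and counted pairs per gene with HTSeq 0.6.0, and the deposited values are raw counts, 1 file per library, without normalization. Read pairs that HTSeq gave to no gene, 40.0% to 73.6% by library, stayed out of all tests. Amplification without molecular identifiers means that counts are not independent molecules.

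Groups followed the genotype, cell type and number in the sample titles. Each comparison took its 6 libraries (the interaction all 12) in R 4.3.3 with edgeR 4.0.16, with TMM normalization, genes with a mean normalized count above 5, the quasi-likelihood test and Benjamini-Hochberg adjustment over all genes tested. SEs were taken from the F statistic, and printed levels used TMM factors over all 12 libraries. Exact permutation tests were two-sided, over 20 relabellings of log2(normalized count + 2). A gene with 3 or fewer counts in each library was taken as at the floor. Lengths came from GENCODE M21 (GRCm38), which lacked 468 identifiers. The steps were tested on simulated counts with a dispersion of 0.1 and no outlying library. Of 200 genes changed by 2 on the log2 scale, all with a mean normalized count above that of Kcnj12, 93% to 96.5% were recovered at an adjusted p under 0.05 in the 4 comparisons of groups. The interaction recovered 48%. The changes estimated for the 7 genes were smaller than the simulated one, so these rates do not give the power to detect them. No libraries were identical, and replicates of a group differed beyond counting noise (chi-square over degrees of freedom at least 7.03).

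All 7 genes are named in each comparison, and genes of the wider lists where an unadjusted p was under 0.05 or, for channels, where a group mean was above 20. The 7 genes and all lists were chosen with earlier results of these data known. The alternatives were DESeq2 1.42.0, its size factors in edgeR, no filter on low counts, limma 3.58.1 voom with sample quality weights, no mitochondrial genes, a block on replicate number, one fit of all libraries, and leaving out each library. For related genes, leaving out each library was added after seeing the data.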

Additional observations from a re-analysis of the deposited data

How the results depend on the processing

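The direction and side of the threshold were kept by 226 fold changes of the 7 genes under alternative analyses, where 8 turned direction, 2 newly passed and 2 no longer passed. With a library left out 203 kept them, 39 turned direction, 4 newly passed and 6 no longer passed. None of the 7 genes passed an adjusted p of 0.05 under any of them, and Kcnj3 in KO VM vs WT VM kept an unadjusted p under 0.05 throughout. The count of the 7 genes at an unadjusted p under 0.05 was 1 in WT PC vs WT VM under limma voom, 0 in KO PC vs KO VM in one fit of all libraries, and 2 in KO VM vs WT VM with no filter on low counts. With a library left out it ran from 0 to 1, from 0 to 3 and from 1 to 2.

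Some log2 fold changes turned sign. Kcnj12, at -0.61 in KO PC vs KO VM, 0.63 in KO VM vs WT VM and -0.67 in the interaction, turned sign without KO VM 1. Under voom these were, in KO PC vs WT PC, Kcnj2 (0.068), Kcnj12 (-0.31), Kcnj5 (-0.021) and Kcnk3 (0.094), Kcnj2 in KO VM vs WT VM (0.029) and Kcnj2 in the interaction (0.060). Kcnj12 in KO PC vs WT PC was -0.020 in one fit of all libraries. With a library left out, the ranges that cross 0 were, in WT PC vs WT VM, -0.38 to 0.46 (Kcnj12), -0.52 to 0.054 (Kcnj5), -0.23 to 0.22 (Kcnk3) and -0.082 to 0.62 (Kcnn2). In KO PC vs KO VM they were -0.91 to 0.051 (Kcnj12), -0.014 to 0.32 (Kcnj5), -0.25 to 0.040 (Kcnj11), -0.053 to 0.19 (Kcnk3) and -0.39 to 0.030 (Kcnn2). In KO PC vs WT PC they were -0.40 to 0.045 (Kcnj2), -0.45 to 0.41 (Kcnj12), -0.088 to 0.48 (Kcnj5), -0.26 to 0.10 (Kcnk3) and -0.53 to 0.19 (Kcnn2). In KO VM vs WT VM they were -0.25 to 0.097 (Kcnj2), -0.037 to 0.95 (Kcnj12), -0.063 to 0.31 (Kcnj11) and -0.33 to 0.12 (Kcnk3). In the interaction they were -0.37 to 0.094 (Kcnj2), -1.09 to 0.0095 (Kcnj12), -0.039 to 0.31 (Kcnj11) and -0.17 to 0.31 (Kcnk3). The cause was not tested.

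Replicate numbers are not tied to hearts by the labels. Libraries of the same number correlated at 0.21, 0.08 and 0.15 between WT PC and WT VM, each best with its own number, and at -0.01, 0.12 and 0.02 between KO PC and KO VM. The replicate block moved the genes called at an adjusted p under 0.05 from 13 to 4 in WT PC vs WT VM and from 94 to 121 in KO PC vs KO VM, and turned Kcnj12 in WT PC vs WT VM to -0.25. Over all genes, calls at an adjusted p under 0.05 in WT PC vs WT VM were 116 by DESeq2, 297 with no filter and 130 by voom, and in KO PC vs KO VM 134 by DESeq2, 326 with no filter and 1 in one fit of all libraries.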
